A study of Cynara cardunculus with 12 samples.

Results

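*Ccrd_010165* and *Ccrd_015561* are the genes named as C4H (cinnamate 4-hydroxylase) and HCT (hydroxycinnamoyl transferase) in the study of cardoon callus that overexpresses *AtMYB4*. They were taken by these identifiers, 2 of the 26505 genes of the cardoon genome CcrdV1 for which reads were counted. The samples came from friable callus, a loose undifferentiated tissue, of *Cynara cardunculus* var. *altilis* genotype "Spagnolo". The 4 groups were untransformed WT callus and the transgenic lines L1, L18 and L24, which carry the *Arabidopsis thaliana* gene *AtMYB4* behind the constitutive CaMV35S promoter, and RNA of each was extracted and sequenced in 3 replicates, 12 samples in all. WT callus grew in the dark on Gamborg B5 medium with 2,4-D and was sub-cultured at longer intervals than the lines. For callus of the lines the light conditions are not stated. L1 and L24 derive from *Agrobacterium* strain AGL1 and L18 from EHA105. The lines were kept on the herbicide PPT with cefotaxime and were at sub-culture XIV, whereas WT was at XXII, and no line with an empty vector was included. The transgene, the age of the culture, the sub-culture interval and the selection therefore cannot be told apart in any comparison with WT. RNA was extracted in triplicate from each group, but whether the replicates were separate cultures is not stated, so p-values measure the spread between these samples, which may be technical. The level of *AtMYB4* itself was not analysed here. The study reports from RT-qPCR that L1 expressed the transgene least and L18 most.

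C4H is a cytochrome P450 of the endoplasmic reticulum that adds a hydroxyl group to cinnamic acid and so makes p-coumaric acid, early in the phenylpropanoid pathway that leads to lignin, flavonoids and chlorogenic acid. HCT, an acyltransferase, passes the p-coumaroyl group from its coenzyme A ester to shikimate or quinate, and the ester formed is what the 3'-hydroxylase of p-coumaroyl esters then acts on. In *Arabidopsis*, MYB4 is known as a repressor of phenylpropanoid genes, of *C4H* in particular. The annotation supplied with the study describes *Ccrd_010165* only as a cytochrome P450. It describes *Ccrd_015561* as an acyltransferase-domain protein and as a hydroxycinnamoyl-CoA:quinate transferase, a close relative of HCT that makes chlorogenic acid directly, so the name HCT is used here as the study gives it. The study reports a further downregulated gene for the C4H step and for the HCT step. Each name therefore stands here for a single gene and not for the whole enzyme step.

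The model of C4H lies on the plus strand of scaffold 3042, from 39949 to 42193, with 3 exons of 847, 134 and 725 bases and introns of 319 and 220 bases. The model of HCT lies on the plus strand of scaffold 845, from 71956 to 73882, with exons of 427 and 902 bases around an intron of 598. The exons add up to 1706 bases in C4H and 1329 in HCT. No other gene model overlaps either of them, and the nearest ends 3220 bases from C4H and 3988 from HCT. Reads shared with near-identical copies elsewhere in the genome cannot be seen in a table of counts, and how such reads were treated is not given in the sources used here.

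Read counts on genes summed to 12505275 in the shallowest sample and 19509803 in the deepest. C4H was among the most abundant transcripts of WT callus and HCT was well expressed there, and in every line both were lower, HCT far more than C4H. C4H was left at 17.0% of its WT mean for L1, 18.6% for L24 and 23.9% for L18. HCT was left at 3.57%, 3.32% and 6.54%, in the same order. These percentages compare means of normalized counts, that is, counts scaled for library size by the TMM method. On this scale L18 had the highest mean of the lines for both genes, although no difference in C4H between lines passed the test, and with library sizes from the RT-qPCR reference genes C4H in L24 stood 0.16 above L18 on the log2 scale.

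C4H had 25051, 21298 and 22340 normalized counts in WT replicates 1 to 3. In L1 it had 3660, 3111 and 4932. In L18 it had 5623, 6089 and 4717, and in L24 it had 4892, 3831 and 4026. Every WT sample lay above every sample of the lines by a wide gap, while the lines overlapped one another. Groups that do not overlap were common, at 53.9% of genes tested for L1 and WT, 39.9% for L18 and WT and 50.8% for L24 and WT. Per length of transcript, C4H reached 848 ± 35.8 FPKM in WT (SD, n = 3), the 83rd highest mean of all genes counted. L1 stood at 154 ± 26.0 FPKM, L18 at 214 ± 18.5 and L24 at 175 ± 13.6, and its place by mean FPKM there was 887th, 603rd and 773rd.

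HCT had 3387, 3062 and 3485 normalized counts in WT. In L1 it had 105.4, 67.9 and 181.6, in L18 204.6, 268.2 and 177.0, and in L24 127.1, 98.6 and 103.8. The replicates of L1 were the most uneven, with a coefficient of variation of 49.0% against 13.8% in L24, and the highest sample of L1 reached into the range of L18. L24 and L18 did not overlap, as for 41.8% of genes tested. On the FPKM scale HCT averaged 158 ± 17.0 in WT (SD, n = 3), while L1 had 5.93 ± 2.49, L18 had 10.8 ± 1.83 and L24 had 5.81 ± 0.481, so that it moved from the 909th highest mean of all genes to the 12665th, 9707th and 12893rd. The fewest reads behind any of these values were the 89 of L24 replicate 2, with an exact 95% Poisson interval of 71.5 to 109.5 that covers counting error only, so HCT remained measurable in all samples.

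**Figure D1:**
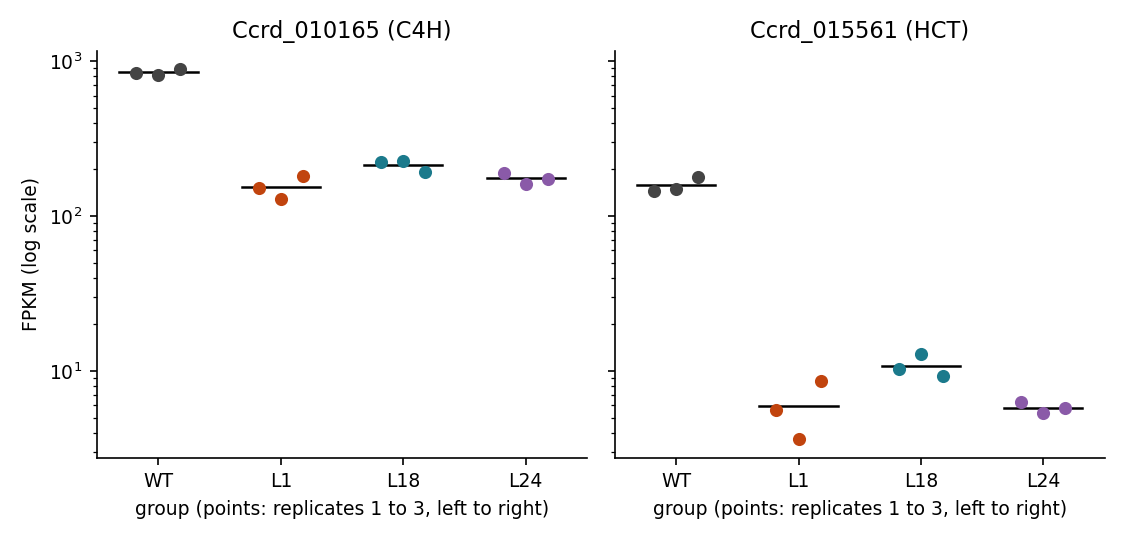
FPKM of C4H (left) and HCT (right) in each sample on a logarithmic axis, with 3 points per group for the replicates and a line at their mean. C4H lies at 848 FPKM on average in WT and between 129 and 228 in the samples of the lines, and HCT at 158 in WT and between 3.62 and 12.9 in the lines.

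The first comparison asked how far each line differed from WT. edgeR's quasi-likelihood test, fitted to all samples with Benjamini-Hochberg adjustment over the 20024 genes tested, called both genes lower in each line at the threshold of 0.05. The log2 fold change of C4H was -2.55 for L1 (SE 0.195, adjusted p = 4.21e-07), -2.06 for L18 (SE 0.192, adjusted p = 4.94e-06) and -2.43 for L24 (SE 0.194, adjusted p = 7.41e-07). That of HCT was -4.83 for L1 (SE 0.296, adjusted p = 6.87e-08), -3.94 for L18 (SE 0.281, adjusted p = 4.77e-07) and -4.91 for L24 (SE 0.298, adjusted p = 8.27e-08). Calls against WT were common: 20.4% of genes tested were called lower for L1, 12.8% for L18 and 20.7% for L24, and 6.27% were lower in every line. The study picked both genes for RT-qPCR among those it had found changed in these samples, so their calls are not independent evidence of the direction. It reports that RT-qPCR and RNA-seq fold changes correlated highly over the genes it tested, both of these among them.

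The size of the fall set the 2 genes apart more than the call. For HCT, 155 of the genes tested had a lower log2 fold change with L1, 137 with L18 and 164 with L24, which placed it below the 1st percentile of all genes in each line. For C4H these numbers were 568, 471 and 587, between the 1st and the 5th percentile. Among the 82 tested genes with a higher mean FPKM than C4H in WT, 42 were called lower for L1, 26 for L18 and 47 for L24, and 10, 2 and 9 of them fell further than C4H. Among the 908 tested genes above HCT in WT, 7 fell further than HCT in L1, 9 in L24 and 4 in L18, and none of them did so in all lines.

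The reference genes of the study's RT-qPCR moved far less. *Ccrd_012208*, which encodes the translation elongation factor ELF1a, stood at log2 values of -0.30, -0.06 and -0.51 for L1, L18 and L24 over WT, none of them called by edgeR (adjusted p = 0.257, 0.868 and 0.0617). *Ccrd_013113*, an actin gene like ACT7, had -0.08, 0.19 and -0.41, also not called (adjusted p = 0.768, 0.554 and 0.126). All 6 of these values are nearer to 0 than any fall of C4H or HCT. Under the 25 alternative settings tried, all falls of both genes against WT kept their call, with log2 fold changes of C4H between -2.76 and -1.71 and of HCT between -5.26 and -3.75.

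**Figure D2:**
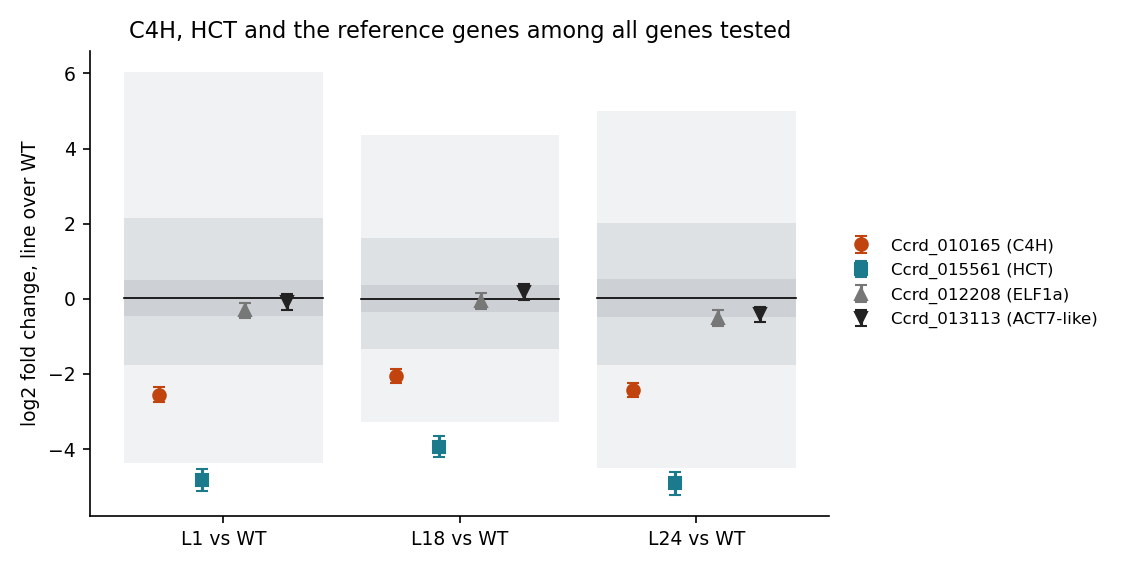
Log2 fold change of C4H, HCT and the reference genes in each line over WT, with bars of 1 SE from the edgeR fit. The grey bands hold the middle 50%, 90% and 98% of all genes tested, with a line at their median, and HCT lies below the widest band in each line.

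The second comparison set the lines against each other, a question that does not involve the WT culture. HCT was lower in L1 than in L18, with a log2 difference of -0.90 (SE 0.271, adjusted p = 0.0205), and lower in L24 than in L18, with a difference of -0.98 (SE 0.273, adjusted p = 0.0150). In these contrasts edgeR called 16.9% and 16.4% of all genes tested lower, so such a call was not rare. Between L1 and L24 the difference of HCT was 0.08 (SE 0.280, adjusted p = 0.887). The first of these calls was lost without L1 replicate 1 (-0.83, adjusted p = 0.0755), L1 replicate 2 (-0.60, adjusted p = 0.0791) or L18 replicate 2 (-0.72, adjusted p = 0.0793). The second was lost without L18 replicate 2 (-0.79, adjusted p = 0.0572), L24 replicate 2 (-0.90, adjusted p = 0.0525) or L24 replicate 3 (-0.94, adjusted p = 0.0558). A fit to L1 and L18 alone also ended the first (-0.89, adjusted p = 0.0776), and values taken relative to the running median of neighbouring genes ended the second (-0.69, adjusted p = 0.0775).

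The reference genes moved in part with the same contrasts. *Ccrd_013113* was lower in L24 than in L18 by a log2 difference of -0.59 (SE 0.204, adjusted p = 0.0406) and *Ccrd_012208* stood at -0.45 (adjusted p = 0.113). When library sizes were taken from these genes instead of TMM, HCT differed from L18 by -0.65 in L1 (adjusted p = 0.0816) and by -0.45 in L24 (adjusted p = 0.177), neither of them called by edgeR.

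C4H gave no call between lines. Its log2 differences were -0.49 for L1 over L18 (SE 0.185, adjusted p = 0.0561), -0.37 for L24 over L18 (SE 0.185, adjusted p = 0.152) and -0.12 for L1 over L24 (SE 0.185, adjusted p = 0.697). The first lay just outside the threshold, and DESeq2 (adjusted p = 0.0332), edgeR's exact test (adjusted p = 0.0414) and limma (adjusted p = 0.0143 to 0.0147) called it. Leaving out L1 replicate 3 gave -0.69 (adjusted p = 0.0133), L18 replicate 3 -0.59 (adjusted p = 0.0424) and L24 replicate 1 -0.49 (adjusted p = 0.0493), all 3 called by edgeR. From lowest to highest, the means of C4H ran L1, L24, L18 and WT, and those of HCT ran L24, L1, L18 and WT. Of these steps only L18 to WT, and for HCT the step from L1 to L18, passed the test.

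The third comparison asked whether both genes fell in proportion, by the ratio of their counts within each sample, which does not depend on how libraries are scaled. The log2 ratio of HCT to C4H was -2.89, -2.80 and -2.68 in the WT replicates. It was -5.12, -5.52 and -4.76 in L1, -4.78, -4.50 and -4.74 in L18, and -5.27, -5.28 and -5.28 in L24. The ratios of WT stood well above all others, and the replicates of L24 were almost equal to each other. Per length, C4H exceeded HCT by 5.39 ± 0.385 times in WT (SD, n = 3), 28.0 ± 7.31 times in L1, 30.2 ± 0.158 times in L24 and 19.95 ± 1.99 times in L18.

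An exact permutation test over all 15400 divisions of the samples into 4 groups of 3 gave p = 0.0013 for the between-group sum of squares of this log2 ratio (one-sided). The mean log2 ratio less that of WT was -2.34 for L1, -1.89 for L18 and -2.49 for L24. For L1 and L24 together less L18 the log2 difference was -0.53, a description that was not tested itself. Among the lines alone the exact permutation test, with L1, L18 and L24 as separate groups, gave p = 0.0714. That test was chosen after the values had been seen, and this exact test passed 0.05 without L1 replicate 2 (p = 0.0107) or L1 replicate 3 (p = 0.025).

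**Figure D3:**
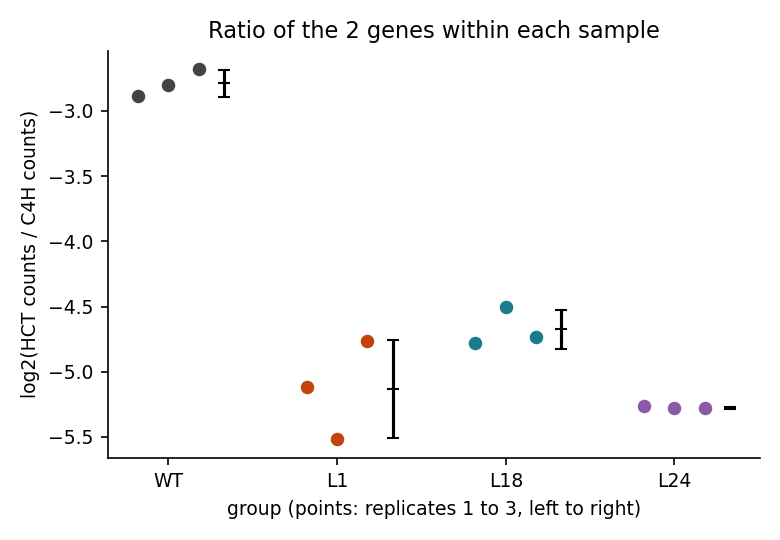
Log2 ratio of HCT counts to C4H counts in each sample, with the mean and SD of each group to the right of its 3 points. The WT samples lie between -2.89 and -2.68 and the samples of the lines between -5.52 and -4.50.

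The genes that act before, beside and after C4H and HCT in the pathway were taken from a list of 38, found by their descriptions in a shortened table of genes that the study had called in L1, so neither the list nor its counts are independent of these samples. All 38 were tested. Of them L1 had 22 called lower and 14 higher, L18 had 18 lower and 4 higher, and L24 had 21 lower and 10 higher, and 17 were lower and 1 higher in every line. Over all genes tested, the shares called higher were 19.3% for L1, 12.5% for L18 and 19.3% for L24, and 5.01% were higher in every line. The median log2 fold change of the list was -1.69 for L1, -0.69 for L18 and -1.29 for L24, beside 0.02, 0.01 and 0.01 over all genes tested.

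Upstream of C4H, both listed genes of phenylalanine ammonia-lyase (PAL), which makes cinnamic acid from phenylalanine, fell in every line. *Ccrd_007512*, the more abundant, had 21008 ± 944 normalized counts in WT (SD, n = 3), against 4864 ± 1635 for L1, 10719 ± 2170 for L18 and 6514 ± 713 for L24, with log2 fold changes of -2.11, -0.97 and -1.69 (adjusted p = 1.05e-05, 0.00624 and 6.93e-05 from edgeR). *Ccrd_014855* went from 1414 ± 199 to 19.4 ± 9.72, 144 ± 48.0 and 76.6 ± 23.5, with log2 fold changes of -6.26, -3.29 and -4.21. Both PAL genes were called lower in L1 and in L24 than in L18, the same direction as HCT. These calls are on the TMM scale only. With library sizes from the reference genes, under which HCT was not called against L18, the PAL genes are not given here.

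Further upstream, the listed genes of the shikimate pathway also fell in every line. Their enzymes act on shikimate, one of the acyl acceptors of HCT, and on its phosphate, and do not make shikimate. Shikimate kinase, *Ccrd_001687*, had values of -1.81, -1.34 and -1.52 on the log2 scale (L1, L18 and L24), and *Ccrd_008822*, described as 3-phosphoshikimate 1-carboxyvinyltransferase, had -1.76, -1.75 and -1.67. Neither was called between any of the lines.

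Between C4H and HCT stands 4-coumarate:CoA ligase (4CL), which makes the coenzyme A ester that HCT uses. Of 12 genes described as 4CL, L1 had 7 called lower and 4 higher, L18 had 5 lower with the rest not called, and L24 had 7 lower and 5 higher, and 5 were lower in every line. Those 5, of which some are named only after their values were seen, were *Ccrd_018690*, *Ccrd_018719*, *Ccrd_022733*, *Ccrd_007113* and *Ccrd_015556*. The most abundant in WT, *Ccrd_018719*, had 4885, 7722 and 8255 counts in WT, 328, 507 and 152 in L1, 266, 324 and 240 in L24 and 970, 722 and 750 in L18, and its log2 fold changes were -4.71 (L1), -3.26 (L18) and -4.67 (L24). The largest mean fall was that of *Ccrd_018690*, a weakly expressed gene with 59 to 108 counts in WT and 1 to 8 in the lines. The largest mean rise was that of *Ccrd_007170*, at 158 ± 47.0 normalized counts in WT, 438 ± 52.2 in L1 and 733 ± 387 in L24, both called higher, while its 209 ± 75.2 in L18 was not called (adjusted p = 0.459). The name 4CL covers other acyl-CoA ligases in such descriptions, so these genes need not act on p-coumaric acid.

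Directly after HCT acts the 3'-hydroxylase of p-coumaroyl esters, described for *Ccrd_025643*. It had 5350 ± 1030 normalized counts in WT (SD, n = 3), 727 ± 210 in L1, 833 ± 175 in L24 and 1287 ± 416 in L18. Its log2 fold changes of -2.88 (L1), -2.06 (L18) and -2.68 (L24) (adjusted p = 2.18e-06, 6.35e-05 and 4.39e-06 from edgeR) were nearer to those of C4H than to those of HCT. Like HCT it was lower in L1 than in L18 (-0.83, adjusted p = 0.0217), and in L24 it stood at -0.63 against L18 (adjusted p = 0.0745). These differences between lines are on the TMM scale only.

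A methylation step comes later in the pathway. Of 4 genes described as caffeoyl-CoA O-methyltransferase (CCoAOMT), which methylates the coenzyme A ester of caffeic acid on the way to lignin, 3 fell in every line, among them *Ccrd_012615*, named after its values were seen, with 762 ± 79.3 normalized counts in WT and 230 ± 52.9 in L1. *Ccrd_019031* was the most abundant, at 1620 FPKM on average in WT, above C4H, and had log2 fold changes of -3.51 (L1), -2.36 (L18) and -2.91 (L24). *Ccrd_004659* had 554, 629 and 684 counts in WT, 16, 0 and 5 in L1, 1, 2 and 4 in L24 and 26, 23 and 20 in L18, the largest mean fall of the list. *Ccrd_012618* rose in L1 and L24, with log2 fold changes of 1.92 and 1.77, and was at -0.19 in L18 (adjusted p = 0.765).

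HCT belongs to a large family of acyltransferases with a shared domain, and its listed relatives went in both directions. Of 17, L1 had 7 called lower and 9 higher, L18 had 5 and 4, and L24 had 6 and 4, and 4 were lower and 1 higher in every line. Named after their values were seen, those lower were *Ccrd_009741*, *Ccrd_009859*, *Ccrd_017522* and *Ccrd_021736*, and the higher 1 was *Ccrd_011701*. The median log2 fold change of the family was 1.22 for L1, 0.00 for L18 and 0.65 for L24. The most abundant in WT, *Ccrd_009859*, fell from 1402 ± 176 normalized counts to 89.8 ± 18.1 in L1, 198.5 ± 57.1 in L24 and 564 ± 299 in L18. The largest mean fall was that of *Ccrd_009741*, with 52, 50 and 28 counts in WT and 0 to 3 in each sample of the lines. The largest mean rise was that of *Ccrd_013923*, which had 0 counts in all samples of WT and L18, 369, 165 and 478 in L1 and 2, 4 and 1 in L24. Set against a floor of 3 counts per library, its mean in L1 was at least 107-fold that of WT. This mean of 351 ± 240 normalized counts was uneven, with 119 in L1 replicate 2. Among the listed relatives HCT, at 158 FPKM in WT, had no equal in abundance, since the highest of them reached 58.7.

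**Figure D4:**
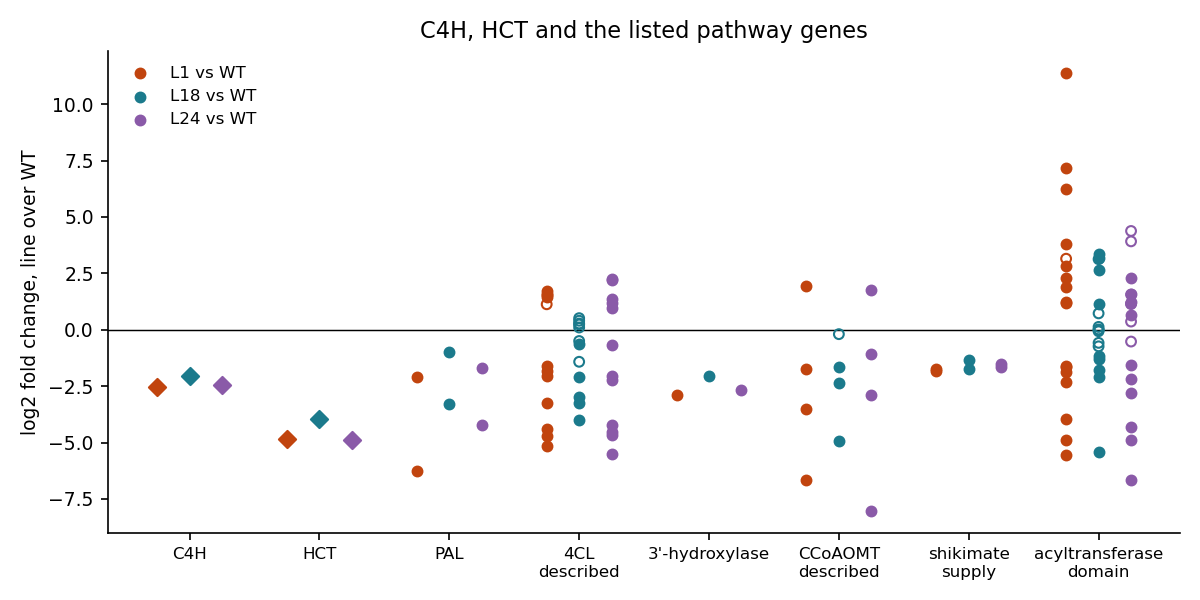
Log2 fold change over WT of C4H and HCT (diamonds) and of the 38 listed pathway genes (circles) by family, in L1, L18 and L24. Filled circles passed the adjusted p of 0.05 and open circles did not, and falls fill the PAL, 3'-hydroxylase and shikimate columns while the acyltransferases spread from -6.64 to 11.4. The column labelled shikimate supply holds the genes that act on shikimate and on its phosphate.

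The order of the lines was then compared within the list, on the TMM scale only. With library sizes from the reference genes, under which HCT was not called against L18, these counts are not given here. Over all 38 listed genes, 15 were called lower and 12 higher in L1 than in L18, with a median log2 difference of -0.09, and 17 lower and 10 higher in L24 than in L18, with a median of -0.47. Of the 17 listed genes lower in every line, 10 were called lower in L1 than in L18 and 1 higher, and 9 were called lower in L24 than in L18 and 1 higher. The shares of all genes tested called higher in these contrasts were 16.1% and 14.3%. Over all 1256 genes lower in every line, the shares called lower were 24.8% and 28.3%, and over the list's 17 genes 58.8% and 52.9%. The list came from genes the study had called in L1, and the 1256 genes were not matched to it for level. Whether these shares differ was therefore not tested. Between L1 and L24, 4 of the 17 were called lower in L1 and 1 higher, where 9.73% and 10.8% of all genes tested were called.

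The genes whose levels were most like those of each member were sought by Pearson's r of log2(CPM + 1) over the 12 samples, as a description. The points share libraries and fall into a WT cluster and a cluster of lines, so that r is set mostly by the gap between them. Of all genes tested, HCT was the most like C4H and C4H the most like HCT (r = 0.997). *Ccrd_005037*, described as a cytochrome P450, was the second for both (r = 0.991 each) and fell from 4858 ± 383 normalized counts in WT (SD, n = 3) to 206 ± 45.5 in L1, 176 ± 72.5 in L24 and 367 ± 117 in L18. *Ccrd_005844*, described as the U6 snRNA-associated protein LSm8, was the third for both (r = 0.989) with smaller falls, from 781 ± 70.6 in WT to between 252 and 294 on average in the lines. The 3'-hydroxylase *Ccrd_025643* was the fourth for C4H (r = 0.989) and the CCoAOMT gene *Ccrd_004659* the fourth for HCT (r = 0.989). An uncharacterized gene, *Ccrd_019153*, was the fifth for both (r = 0.988), with 70, 64 and 63 counts in WT, 0, 0 and 1 in L1, 9, 8 and 1 in L18 and 0 in all samples of L24.

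Over the 9 samples of the lines alone the likeness of the 2 genes remained, with r = 0.957, but others came closer. For C4H the first 4 were *Ccrd_000035*, *Ccrd_018934*, *Ccrd_006707* and *Ccrd_000673*, with r from 0.958 to 0.970, and HCT was the fifth. For HCT the first were *Ccrd_007875* (r = 0.959) and *Ccrd_007720* (r = 0.958), then C4H, *Ccrd_012935* (r = 0.956) and *Ccrd_024986* (r = 0.952). *Ccrd_012935*, described as an LEA_2 domain protein, was called lower than WT in L1 and L24 and stood at -0.13 in L18 (adjusted p = 0.765). *Ccrd_007875* and *Ccrd_007720* were not called against WT in any line, so these genes were like HCT within the lines without a called fall from WT. *Ccrd_024986* was called only in L18, where it was higher than WT. Of the genes most like C4H, *Ccrd_000035*, *Ccrd_006707* and *Ccrd_000673* were called lower than WT in L1 and L24 but not in L18. *Ccrd_018934* was not called in any line.

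The genes next to each member in the order of identifiers were examined because neighbouring genes can move together. Of the 10 around C4H, 6 were tested, and of these L1 had 5 called lower, L18 had 2 and L24 had 3, with the rest not called and medians of -1.22, -0.56 and -0.61 on the log2 scale. Only *Ccrd_010166*, described as a glutathione S-transferase, shares its scaffold, and it fell in every line, from 1124 ± 158 normalized counts in WT (SD, n = 3) to 470 ± 70.6 in L1, 575 ± 140 in L24 and 282 ± 45.9 in L18. *Ccrd_010160*, on another scaffold, also fell in every line, with -1.39 (L1), -0.95 (L18) and -0.97 (L24) on the log2 scale. Of the 10 around HCT, 9 lie on its scaffold and 8 were tested, and L1 had 1 called lower and 1 higher, while L18 and L24 had 2 lower each. The gene of this group that fell in every line, *Ccrd_015556*, with log2 fold changes of -1.61 (L1), -2.10 (L18) and -2.05 (L24), is a 4CL-described gene that lies on another scaffold, scaffold 1578.

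The running median of log2 fold changes over the genes of mean log2 CPM of at least 3 that surround C4H in identifier order was -0.72 for L1, -0.36 for L18 and -0.41 for L24, and around HCT -0.06, 0.00 and -0.38. Measured from these medians, C4H stood at -1.84, -1.71 and -2.02 and HCT at -4.78, -3.94 and -4.53. For C4H an F test computed with the SE of the edgeR fit gave adjusted p = 7.87e-06, 2.48e-05 and 3.69e-06. It takes the medians as known without error. The genes around C4H thus stood below those around HCT in L1 and L18, and both members stayed well below their surroundings.

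**Figure D5:**
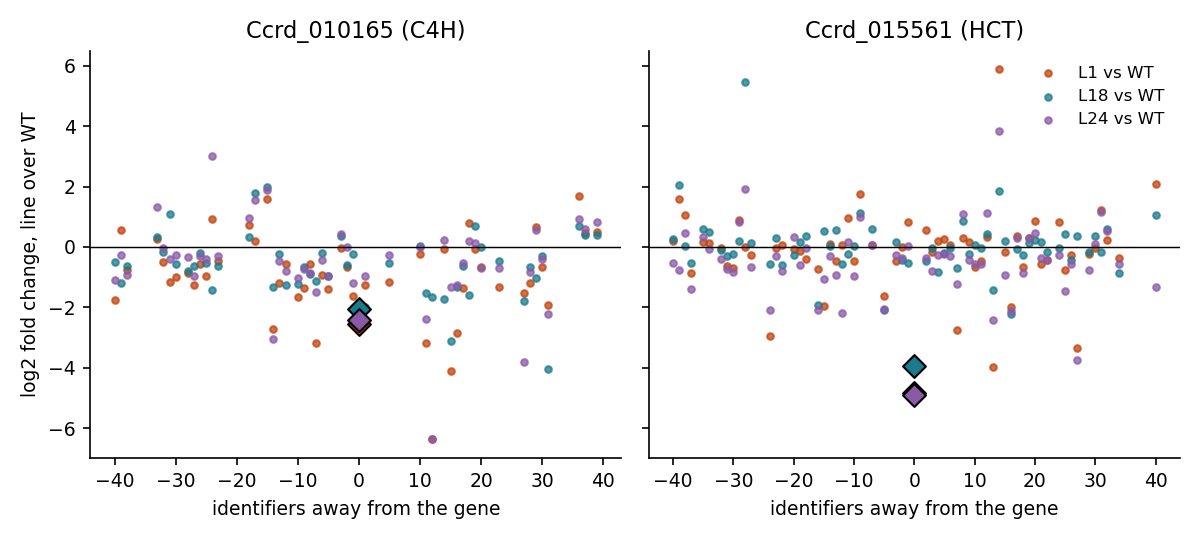
Log2 fold change over WT of the genes tested within 40 identifiers of C4H (left) and HCT (right), by line, with the member itself as a diamond at 0. Identifier order joins different scaffolds. HCT stands apart from genes that centre near 0 in L1 and L18, while C4H lies among genes many of which are below 0. In L24 the running medians around HCT and C4H were close, at -0.38 and -0.41.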

How the data were processed

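RNA of 3 replicates each of WT, L1, L18 and L24 callus was sequenced (TruSeq libraries, on a NovaSeq). The authors trimmed reads with BBDuk (minimum length 35, quality 35) and aligned them to CcrdV1 with STAR. The deposited counts are the reads that the authors counted per gene, unscaled, and the deposited FPKM values are these counts scaled by the authors for exon length and library total. The read counter and its strand setting are not given in the sources used here.

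Counts were tested in R 4.3.3 with edgeR 4.0.16 (TMM, quasi-likelihood F test, 1 fit to all samples, Benjamini-Hochberg, threshold 0.05), and the SE is the log2 fold change divided by the square root of F. Genes were kept above 10.5 normalized counts in at least 1 sample, the threshold with the highest Jaccard index between replicates (0.961), the rule of HTSFilter written anew. This left 20024 of 26505 genes. Alternatives used DESeq2 1.42.0 and limma 3.58.1, on log2(FPKM + 1) and log2(FPKM + 0.1). Figures and permutations used Python 3.11.15 with matplotlib 3.10.9. The test was checked on simulated data.

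Named genes are the members, the reference genes, of the list every PAL, 3'-hydroxylase and shikimate gene and in each other family the most abundant in WT and the largest mean fall and rise, the 5 genes most alike, and the 5 identifiers on each side. Some genes of the pathway are not reported here. Members and lists were chosen with earlier results of these data known. Of the genes in the RefSeq table, 0 carried identifiers of the files, so no sequence or product name was taken from it and no tissue marker was used. The descriptions of genes are those of the annotation supplied with the study. Replicates differed beyond counting noise (chi-square per degree of freedom from 8.12 to 40.3).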

Additional observations from a re-analysis of the deposited data

Results flagged for a closer look

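The lines differed in HCT by the test of the difference itself. *Ccrd_015561* was lower in L1 than in L18 by a log2 difference of -0.90 (edgeR, adjusted p = 0.0205), with L1 lower in 2 of 3 replicates than every L18 sample, and lower in L24 than in L18 by -0.98 (edgeR, adjusted p = 0.0150), with all 3 replicates lower. Each of these was called under 20 of the 25 alternatives and lost under the others. Groups of 3 samples were not examined for single samples that stand apart.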

How the results depend on the processing

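For the falls of C4H and HCT against WT, all 150 values (6 results under 25 alternatives) kept their direction and call, with a largest adjusted p of 8.79e-05. The count of listed genes lower in every line stayed between 15 and 18 beside 17, and the p of the ratio test between 0.000195 and 0.00325. Between lines 123 of 150 values kept direction and call, and for those that did not the cause was not tested. C4H in L1 against L18 was called by DESeq2 (-0.49, adjusted p = 0.0332), by edgeR's exact test (-0.49, adjusted p = 0.0414) and by limma on log2(FPKM + 1) with and without a minimum FPKM of 1 in 3 samples (-0.48 each, adjusted p = 0.0143 and 0.0146) and on log2(FPKM + 0.1) (-0.49, adjusted p = 0.0147), and ranged from -0.69 to -0.35 with 1 sample left out. HCT in L1 against L18 was not called in a fit to these groups alone (-0.89, adjusted p = 0.0776) or with library sizes from the reference genes (-0.65), and ranged from -1.33 to -0.60 without 1 sample. HCT in L24 against L18 was not called with the reference genes (-0.45) or relative to the running median of neighbours (-0.69, adjusted p = 0.0775), and ranged from -1.10 to -0.79. Small differences that were never called changed sign: C4H in L24 against L18 with the reference genes (0.16), C4H in L1 against L24 relative to neighbours (0.17), with a range of -0.33 to 0.015 without 1 sample, and HCT in L1 against L24 with the reference genes (-0.20), relative to neighbours (-0.20) and by limma (-0.037 and, on log2(FPKM + 0.1), -0.054), with a range of -0.35 to 0.37. The log2 ratio of HCT to C4H in L1 and L24 below L18, an alternative chosen after seeing the data, ranged from -0.62 to -0.45 without 1 sample.

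Of 18 same-numbered pairs of samples, 6 had deviations correlated above 0.1 (from -0.345 to 0.457 over all pairs). Pairs with different numbers were not compared, so whether some replicates share a batch cannot be decided from these values. With replicate number as a block, HCT differed by -0.94 in L1 and -0.99 in L24 from L18 (adjusted p = 0.0258 and 0.0217), C4H and HCT kept all their calls, and the genes called in L1, L18 and L24 against WT numbered 7644, 4733 and 7688 beside 7946, 5071 and 7998.

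With 89 to 255 counts per sample of the lines behind HCT, differences between lines rest on far fewer reads than those of C4H, which had 3459 to 6267.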
